A study of Mus musculus with 82 samples.

Results

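The comparison described here sets aortic vascular smooth muscle cells (aVSMC) incubated for 48 h with U46619 directly against aVSMC incubated for 48 h with EGF. U46619 is a stable thromboxane analog that activates the thromboxane receptor (TP), and EGF activates the EGF receptor (EGFR). The 10 libraries, 5 for each ligand, are all libraries of the 2 groups in the EGF/U46619 batch of the 48 h incubation, of 82 in the series, and no control library enters the test. All aVSMC were primary cultures from aortas of C57BL/6 mice, used up to passage 7 and grown in a smooth muscle medium that itself held EGF, serum, insulin and hydrocortisone. They were then kept 24 h without serum and supplements, after which 10 µg/L EGF or 1 µM U46619 was added for 48 h. Cultures with the same replicate number are called a culture set, and each of the 5 sets gave 1 culture with U46619 and 1 with EGF. The methods name a different mouse for each replicate, whereas the labels give sets 1 and 4 the same mouse number. Poly(A) RNA was sequenced and the authors deposited counts of reads on exons, given here as FPM (fragments per 1000000 counted fragments, with TMM-scaled library sizes). The methods refer to an earlier test of culture purity and describe no cell sorting, and these cultures carried markers of other cell types (given below), which limits the groups as a model of smooth muscle alone.

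EGFR is a receptor tyrosine kinase whose ligands act through RAS and ERK, and its signal is curbed by feedback genes such as the Sprouty family. TP is a G protein-coupled receptor that couples mainly to Gq and to G12/13, raises calcium and contracts vessels. Actin tension releases the cofactors MRTF and YAP, which drive genes of the cytoskeleton and of the matricellular CCN family. G protein-coupled receptors can also transactivate EGFR.

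The table lists 55401 genes, of which 48326 lie outside chromosomes 9, X, Y and MT. The genes of those chromosomes, and 657 genes of chromosome 8 beyond position 97876154 (GRCm38), are listed at 0 in every library of the batch, so none of them was measured. A count in at least 1 of the 10 libraries was present for 28003 of the others, and 13920 genes passed the filter for low counts and were tested. The total count per library lay between 19936925 and 32797224. Of the smooth muscle markers, Acta2 lay between 703 and 6623 FPM and Myh11 between 1.19 and 201 FPM, while Tagln and Cnn1 lie on chromosome 9. Endothelial markers (9 measured of 10) summed to 14.6 to 18.04 FPM in set 5 and to 1015 and 1282 FPM in set 1, so this sum differed widely between sets. Macrophage and leukocyte markers (9 measured of 10) summed to 43.04 to 79.3 FPM with U46619 and to 52.6 to 121.4 FPM with EGF. Lyz2 (23.3 to 97.6 FPM), Csf1r (4.71 to 31.3 FPM) and Cd14 (1.73 to 23.3 FPM) held most of this sum, while the defining leukocyte marker Ptprc and the markers Adgre1, Itgam and Tyrobp were at most 0.122 FPM in all 10 libraries.

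After 48 h, the cultures with U46619 and with EGF differed in genes of matrix, metabolism and signaling. With U46619, the urokinase receptor gene Plaur, the matricellular gene Thbs1, the YAP target Ankrd1, the glycolysis genes Hk2 and Slc2a1, the cytokine Il6 and the heme oxygenase Hmox1 were higher than with EGF. Lower with U46619 were the small leucine-rich proteoglycan genes Aspn, Omd and Ogn, the collagen VI genes, the lipid transport genes Abca8a, Apod and Apoe, the interferon-stimulated genes Ifit3 and Isg15 and the adventitial fibroblast markers Scara5 and Lrrc17. With the culture set as a block, a gene was called differentially expressed (DEG) if its Benjamini-Hochberg adjusted p (FDR) was under 0.05 by DESeq2 and by edgeR's quasi-likelihood test alike and 1 group had a mean of at least 5 FPM. By this rule 1089 genes were DEG (7.82% of those tested), 529 higher with U46619 (3.8%) and 560 lower (4.02%). The median log2-fold change was 0.52 for the higher and −0.63 for the lower DEG, and 49 DEG were higher and 115 lower by at least 2-fold. Of all DEG, 979 differed in the same direction in 5 of 5 sets and 110 in 4. The values of the 2 groups did not overlap for 121 DEG (76 higher, 45 lower), and for 220 of all tested genes (1.58%).

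**Figure D1:**
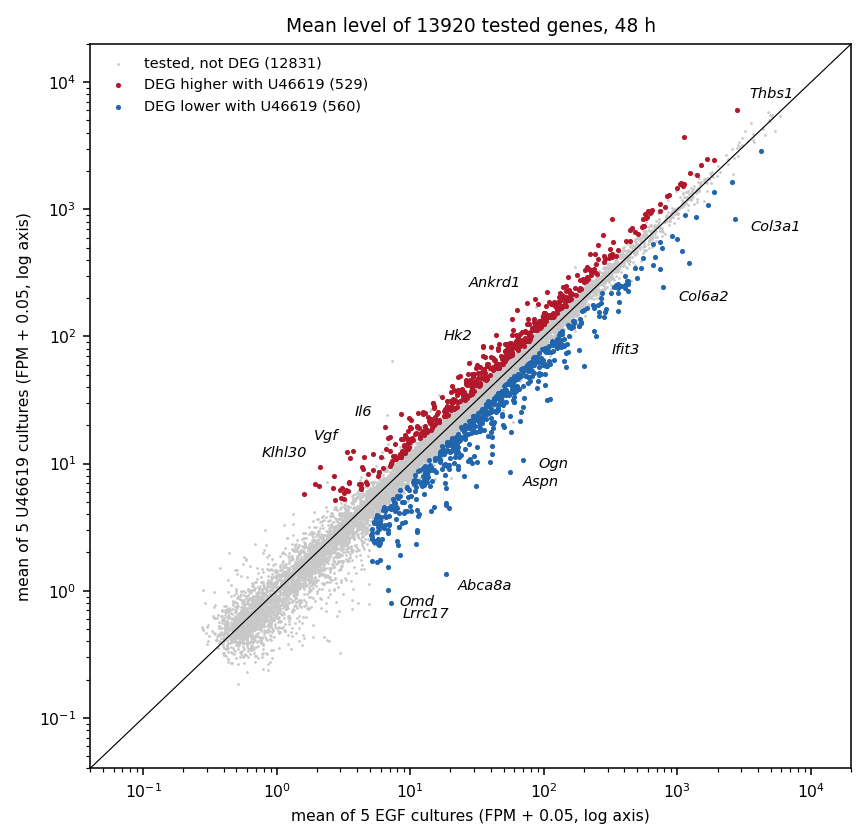
Mean level of each of the 13920 tested genes in the 5 U46619 cultures (vertical) against the 5 EGF cultures (horizontal), both as FPM plus 0.05 on log axes, with 1 point per gene and the diagonal as line of equal level. Of the 529 DEG higher with U46619 (red), 49 lie at least 2-fold above the diagonal, and of the 560 lower DEG (blue) 115 lie at least 2-fold below it, led by Abca8a, Lrrc17, Aspn and Omd.

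Within the sets, the median difference (U46619 minus EGF, log2 of FPM plus 0.5) of the higher DEG was 0.60, 0.48, 0.55, 0.44 and 0.43 in sets 1 to 5. For the lower DEG it was −0.68, −0.67, −0.70, −0.62 and −0.37, so the decrease was smallest in set 5. The p-values rest on the spread of these differences over 5 sets and on the block: without the block 0 genes were DEG (0 by edgeR alone, 71 by DESeq2 alone, and 797 where an unadjusted p under 0.05 from each tool sufficed), and with the mouse number of the labels as block 95 were DEG, all of them among the 1089. The count also depended on sets 1 and 3, with 511 DEG without set 1 and 424 without set 3.

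The 48 h libraries without ligand and with both ligands, which entered no test, place the difference. On the log2 scale, the median of the higher DEG was 0.59 above control with U46619 and 0.05 with EGF, and for the lower DEG it was −0.63 and −0.02. The mean of the control cultures lay nearer to EGF than to U46619 for 518 of the 529 higher and for 516 of the 560 lower DEG. The mean of the cultures with EGF+U46619 lay nearer to U46619 for 501 and 537 of them. These values share the libraries of the comparison and are given as a description.

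Of the genes of the 2 receptors, Tbxa2r was lower with U46619 and Egfr was not DEG. Tbxa2r, which encodes TP (chr10:81328731-81335172 of GRCm38, as for all positions below), was measured at 38.2, 35.9, 31.2, 36.3 and 14.95 FPM with U46619 in sets 1 to 5 and at 67.7, 52.01, 63.6, 89.5 and 18.6 FPM with EGF. It was lower with U46619 in 5 of 5 sets, by the least in set 5, where both values were lowest, and the groups overlapped through that set. Its log2-fold change was −0.81 ± 0.13 (SE, n = 5 sets; edgeR FDR = 0.0058). The median was 74.99 FPM in the control cultures and 29.6 FPM with EGF+U46619. Egfr (chr11:16752203-16918158) was measured at 32.9, 74.5, 80.98, 61.2 and 199 FPM with U46619 and at 48.3, 121, 79.9, 46.6 and 126 FPM with EGF. It was higher with U46619 in 3 sets, above all in set 5, and lower in the other two, and its log2-fold change of −0.03 had a 95% interval of −0.43 to 0.37 (edgeR FDR = 0.94). Of the other 6 genes of the receptor list, which encode EGFR partners and the G protein subunits that TP couples to, 0 were DEG (2 at an unadjusted p under 0.05 in edgeR, 0 by DESeq2 alone).

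Genes that ERK induces were found on both sides. Of 20 ERK feedback inhibitors and targets tested, 5 were higher with U46619 and 4 were lower, with a median log2-fold change of −0.01 against −0.0003 for all genes tested. Ier3, an immediate early gene that protects from cell death (chr17:35821684-35822923), was measured at 75.6, 60.6, 68.9, 67.4 and 73.9 FPM with U46619 and at 38.05, 31.05, 31.9, 49.8 and 48.5 FPM with EGF. Every U46619 culture was above every EGF culture (log2-fold change 0.82 ± 0.11, edgeR FDR = 0.0023). Errfi1, the intracellular inhibitor of EGFR, was also higher (0.70 ± 0.13), as were Fosl1 and Il1rl1. Spry1, a Sprouty inhibitor of receptor tyrosine kinase signaling (chr3:37639947-37644598), was measured at 44.6, 23.6, 18.5, 13.4 and 27.7 FPM with U46619 and at 132, 62.3, 64.8, 49.5 and 28.2 FPM with EGF. It was lower in each of sets 1 to 4 and level in set 5, with a log2-fold change of −1.35 ± 0.23 (edgeR FDR = 0.0065). Spry4 (−0.42), the ETS factor Etv5 (−0.37) and the G1 cyclin Ccnd1 (−0.48 ± 0.09) were lower as well. The count of lower members was 1 without set 1 or 3 and 2 without set 2, and that of higher members was 3 without set 3. The EGFR ligands held 1 DEG among 6 tested: Tgfa was lower with U46619 (−0.44 ± 0.11), while Hbegf had a log2-fold change of 0.25 (edgeR FDR = 0.15). Tgfa was not DEG without set 1, 2 or 3.

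The AP-1 and EGR transcription factors, immediate early genes of both receptor types, held DEG in both directions. Among 12 tested, 5 were higher, 2 lower and 5 not DEG. The AP-1 members Fosl1 (0.93 ± 0.18), Fosl2 (0.56) and Junb (0.55) and the related Atf3 (0.82 ± 0.14) and Maff (0.59) were higher with U46619. Egr2 (−0.87 ± 0.16) and Egr3 (−0.91 ± 0.22) were lower. Junb was measured at 162.1, 153.3, 174.4, 187.6 and 202 FPM with U46619 and at 94.1, 128, 92.6, 147.1 and 148.6 FPM with EGF, so every U46619 culture was above every EGF culture. Egr2 was measured at 5.90, 11.7, 11.6, 15.8 and 16.9 FPM with U46619 and at 11.2, 36.9, 19.5, 23.1 and 23.5 FPM with EGF, lower in 5 of 5 sets with overlapping groups. The higher members numbered 3 without set 1 and 2 without set 3, and the lower members 1 without set 1, 2 or 3.

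Targets of YAP and TEAD included genes that were higher with U46619. Of 21 tested, 8 were higher, 1 was lower and 12 were not DEG, and the median log2-fold change was 0.30. Ankrd1, a nuclear ankyrin repeat protein of muscle cells (chr19:36111961-36120099), was measured at 123, 251, 278, 316 and 20.2 FPM with U46619 and at 50.9, 91.7, 74.3, 203 and 8.75 FPM with EGF. It was higher in 5 of 5 sets (1.30 ± 0.15, edgeR FDR = 0.0013), although set 5 held far less of it than the other sets. The matricellular genes Ccn1 (0.61 ± 0.13) and Ccn2 (0.65 ± 0.15) were higher as well, Ccn2 in 4 of 5 sets, as were the receptor kinase Axl (0.43), the Hippo kinase Lats2 (0.41) and the LIM protein Ajuba (0.30). Igfbp3, which binds insulin-like growth factors, was the lower member (−0.61). The count of higher members fell to 1 without set 1 or 3 and to 4 without set 4, and 0 were lower without set 1 or 3.

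TEAD factors bind the motif GGAATG, which was searched as GGAATG and CATTCC on both strands of 32851 mouse promoters (RefSeq, 250 bases before to 50 after a gene start) and was present in 14.7% of them. Counted by gene, 4481 of 27025 hold it. Of the 8 higher members, 5 have a promoter in the table and all 5 of these genes hold the motif, as do 2 of the 7 members with a promoter that were tested and not DEG. The promoter of the lower member Igfbp3 does not hold it. The 5 higher genes with the motif are Ankrd1, Ccn1, Lats2, Axl and Ajuba. In the 5 fits with 1 set left out they were DEG in 5, 3, 3, 1 and 0, so this split depends on single sets. The members were chosen as targets of YAP and TEAD, so a share above that of all promoters is no result of these data. The promoters of Ankrd1 and Ccn1 are printed because both genes were higher and hold the motif. They show the 250 bases before the gene start, 5′ to 3′ on the strand of the gene (GRCm38.p6, chr19:36119845-36120094 on the minus strand for Ankrd1 and chr3:145649986-145650235 on the minus strand for Ccn1), with the motif in capitals.
Ankrd1: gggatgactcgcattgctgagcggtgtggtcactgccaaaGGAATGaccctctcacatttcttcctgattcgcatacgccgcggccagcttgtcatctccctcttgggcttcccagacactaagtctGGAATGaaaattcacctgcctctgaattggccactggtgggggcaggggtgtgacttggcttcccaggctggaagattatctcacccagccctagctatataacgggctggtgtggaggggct
Ccn1: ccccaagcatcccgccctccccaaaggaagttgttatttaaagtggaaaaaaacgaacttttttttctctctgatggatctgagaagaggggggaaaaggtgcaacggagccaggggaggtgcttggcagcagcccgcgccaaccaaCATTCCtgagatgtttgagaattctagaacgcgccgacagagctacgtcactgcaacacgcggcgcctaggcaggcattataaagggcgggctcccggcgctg
The motif begins 210 and 123 bases before the start of Ankrd1 and 103 bases before that of Ccn1. A match is a description of the letters and no measurement of binding.

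Cytoskeleton genes held DEG in both directions. Of 25 genes of the contractile apparatus and SRF targets tested, 6 were DEG (against 7.82% of all genes tested), 4 higher and 2 lower, with a median of 0.10. The higher members included Actn1 (0.49 ± 0.09), which crosslinks actin, Cald1 (0.44), which binds actin and tropomyosin, and Mrtfa (0.40), the actin-regulated cofactor of SRF. The lower members were Synpo2 (−0.53) and the collagen receptor subunit Itga1 (−0.77). The higher count was 1 or 2 without any 1 of the 5 sets, and 0 members were lower without set 1, 3 or 4, so the count of this list depended on every set. Acta2, the smooth muscle actin, was measured at 3225, 1555, 4395, 5024 and 1106 FPM with U46619 and at 2645, 885, 3139, 6623 and 703 FPM with EGF. It was higher in 4 of 5 sets and lower in set 4, and did not pass the test (0.37 ± 0.17, edgeR FDR = 0.21). Of 21 actin regulators and focal adhesion genes tested, 2 were higher, 1 lower and 18 not DEG. The kinase gene Rock2 (0.47 ± 0.10) was higher in every U46619 culture than in any EGF culture, and Flnc (0.43), which encodes a filamin, was higher too, whereas Arhgap24 (−0.45), a GTPase-activating protein, was lower. The higher count of this list was 0 without set 1, 1 without set 3 or 4 and 4 without set 5, and the lower count was 0 without set 1, 2 or 3 and 2 without set 5. The nonmuscle myosin gene Myh9 (0.38), which belongs to no list, was higher as well. Myh9 was DEG in 1 of the 5 fits with 1 set left out. Among 12 integrin subunits tested, Itga7 (1.24 ± 0.18), a laminin receptor subunit of muscle, and Itgav (0.47) were higher and Itga1 was lower, the last not without set 1, 2 or 3. Itga7 was measured at 30.3, 21.8, 25.4, 28.1 and 7.36 FPM with U46619 and at 6.96, 14.5, 12.2, 11.6 and 3.30 FPM with EGF. It was higher in each set, and set 5 was lowest under both ligands.

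Genes of TGF-beta and activin signaling were shifted in both directions. Of 16 tested, 5 were higher and 1 lower, and the median was −0.07. Ltbp1, which stores latent TGF-beta in the matrix, was higher (0.66 ± 0.13) while its relative Ltbp4 was lower (−0.64 ± 0.11). The activin subunits Inhba (0.51) and Inhbb (0.61) and the SMAD corepressors Skil (0.46) and Tgif1 (0.60) were higher. The higher members numbered 2 without set 1 and 3 without set 3. Of 16 ID factors and BMP antagonists tested, 2 were higher and 4 lower, and 1 was higher and 2 were lower without set 3. Id4, an inhibitor of bHLH factors, was measured at 31.3, 15.6, 13.7, 13.5 and 14.95 FPM with U46619 and at 119, 44.5, 62.8, 33.5 and 23.6 FPM with EGF, lower in each set (−1.53 ± 0.19).

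Genes of fibrinolysis, the breakdown of clots by plasmin, were changed in both directions. Plaur, the receptor of urokinase (chr7:24462484-24475968), was measured at 76.8, 73.1, 88.2, 111 and 63.9 FPM with U46619 and at 29.1, 28.9, 20.7, 50.9 and 44.8 FPM with EGF. The groups did not overlap (1.29 ± 0.18, edgeR FDR = 0.0027). The activators Plau (urokinase, −0.54 ± 0.11) and Plat (tissue plasminogen activator, −0.37 ± 0.08) were lower with U46619. Of 11 fibrinolysis and coagulation genes tested, 2 were higher and 4 lower (median −0.29), and the lower count was 0 without set 2 or 3, 1 without set 1 and 2 without set 4.

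Of 16 provisional matrix and matricellular genes tested, 3 were higher and 2 lower. Thbs1, thrombospondin-1 (chr2:118111876-118127133), was measured at 9412, 2983, 6126, 7280.4 and 4655 FPM with U46619 and at 3902, 1365, 2884, 3912 and 2022 FPM with EGF. It was higher in each set, and the groups overlapped through set 2, the lowest under both ligands (1.12 ± 0.11, edgeR FDR = 0.00075). Tenascin-C (Tnc, 0.87 ± 0.15) was higher as well. Periostin (Postn, −0.73 ± 0.17) and Ccn3 (−1.16 ± 0.16), a CCN protein that counteracts Ccn2 in several cell types, were lower, and 1 member was lower without set 2 or 3.

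**Figure D2:**
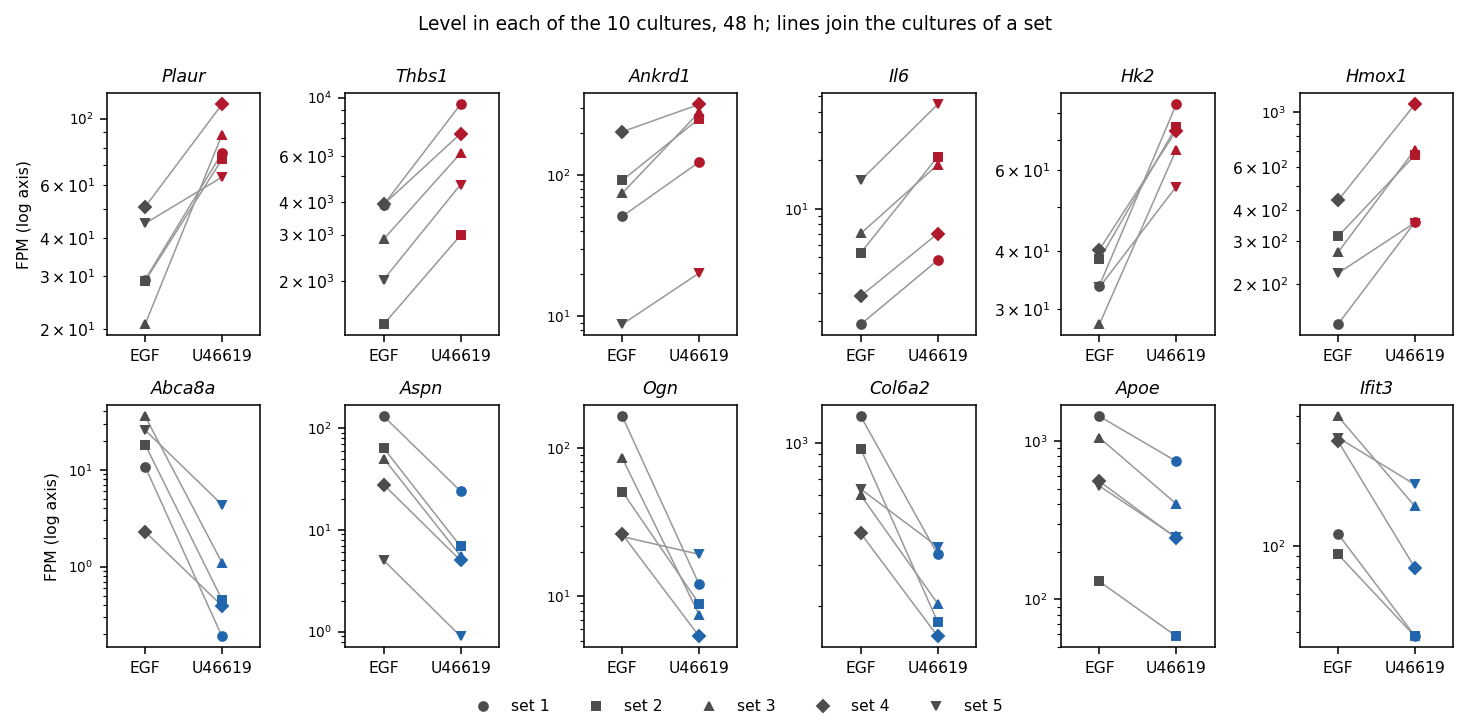
Level in each of the 10 cultures for 12 genes, in FPM on log axes that differ between panels, with EGF left and U46619 right and lines joining the 2 cultures of a set (symbols mark sets 1 to 5). Every line runs up in the top row (Plaur to Hmox1) and down in the bottom row (Abca8a to Ifit3), while the level of a gene under 1 ligand often differs more between sets (Ankrd1 with U46619, 20.2 to 316 FPM) than between the ligands.

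Several small leucine-rich proteoglycans, collagen-binding matrix proteins, were lower with U46619 than with EGF. Of 9 tested, 5 were lower and 0 higher (7 at an unadjusted p under 0.05 in edgeR), all 9 had a negative log2-fold change, and the median was −1.40. Aspn, asporin (chr13:49544443-49567565), was measured at 24.01, 6.87, 5.57, 5.01 and 0.902 FPM with U46619 and at 130.2, 63.4, 50.1, 27.8 and 5.01 FPM with EGF. It was lower in each set by a factor of more than 5, and set 5 held the least under both ligands (−2.78 ± 0.15, edgeR FDR = 3.6e-05). Ogn, osteoglycin (chr13:49608046-49624501), was measured at 12.1, 8.93, 7.55, 5.41 and 19.2 FPM with U46619 and at 162.998, 50.9, 85.2, 26.2 and 25.3 FPM with EGF. Each U46619 culture was below each EGF culture, with the smallest gap in set 5 (−2.52 ± 0.41, edgeR FDR = 0.0058). Omd, osteomodulin, also had groups that did not overlap (−2.60 ± 0.29), and Ecm2 (−1.59 ± 0.30) and Fmod, fibromodulin (−1.38 ± 0.22), were lower in 5 of 5 sets. Without set 1, 3 members were DEG.

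Collagen genes did not move as a class. Of 17 tested, 6 were lower, 0 higher (9 at an unadjusted p under 0.05 in edgeR) and the median was −0.27. Col6a2 (chr10:76595762-76623630) was measured at 334, 171.6, 205, 148.9 and 360.0 FPM with U46619 and at 1303, 943, 597, 410.1 and 635 FPM with EGF. The groups did not overlap (−1.65 ± 0.20, edgeR FDR = 0.0013). Its partner chains in collagen VI, which forms beaded filaments around cells, were lower too (Col6a1 −1.73 ± 0.22, Col6a3 −0.79 ± 0.21). The basement membrane collagen genes Col15a1 (−1.89 ± 0.23) and Col18a1 (−0.52) and the fibrillar Col3a1 (−1.37 ± 0.20) completed the 6. Col3a1 was measured at 377, 2761, 273, 256 and 522 FPM with U46619 and at 1430.4, 10036, 793, 533 and 708 FPM with EGF. Set 2 stood far above the other sets under both ligands, and within each set U46619 was lower.

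Of 15 elastic fibre genes tested, 5 were lower and 1 higher (median −0.21). The microfibril genes Mfap2 (−1.36 ± 0.16) and Mfap4 (−1.17) and the fibulins Fbln1 (−0.86 ± 0.17) and Efemp1 (−0.86 ± 0.14) were lower. Elastin (Eln) was measured at 268, 7.28, 16.1, 14.8 and 1.14 FPM with U46619 and at 269.7, 22.4, 69.5, 55.4 and 1.71 FPM with EGF. It was nearly level in set 1, which held the most, and lower in the other sets (−1.33 ± 0.29, edgeR FDR = 0.018). The lower members numbered 2 without set 3 and 3 without set 4, and 0 were higher without set 1, 3 or 4. The gelatinase gene Mmp2 was also lower (−0.78 ± 0.13).

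**Figure D3:**
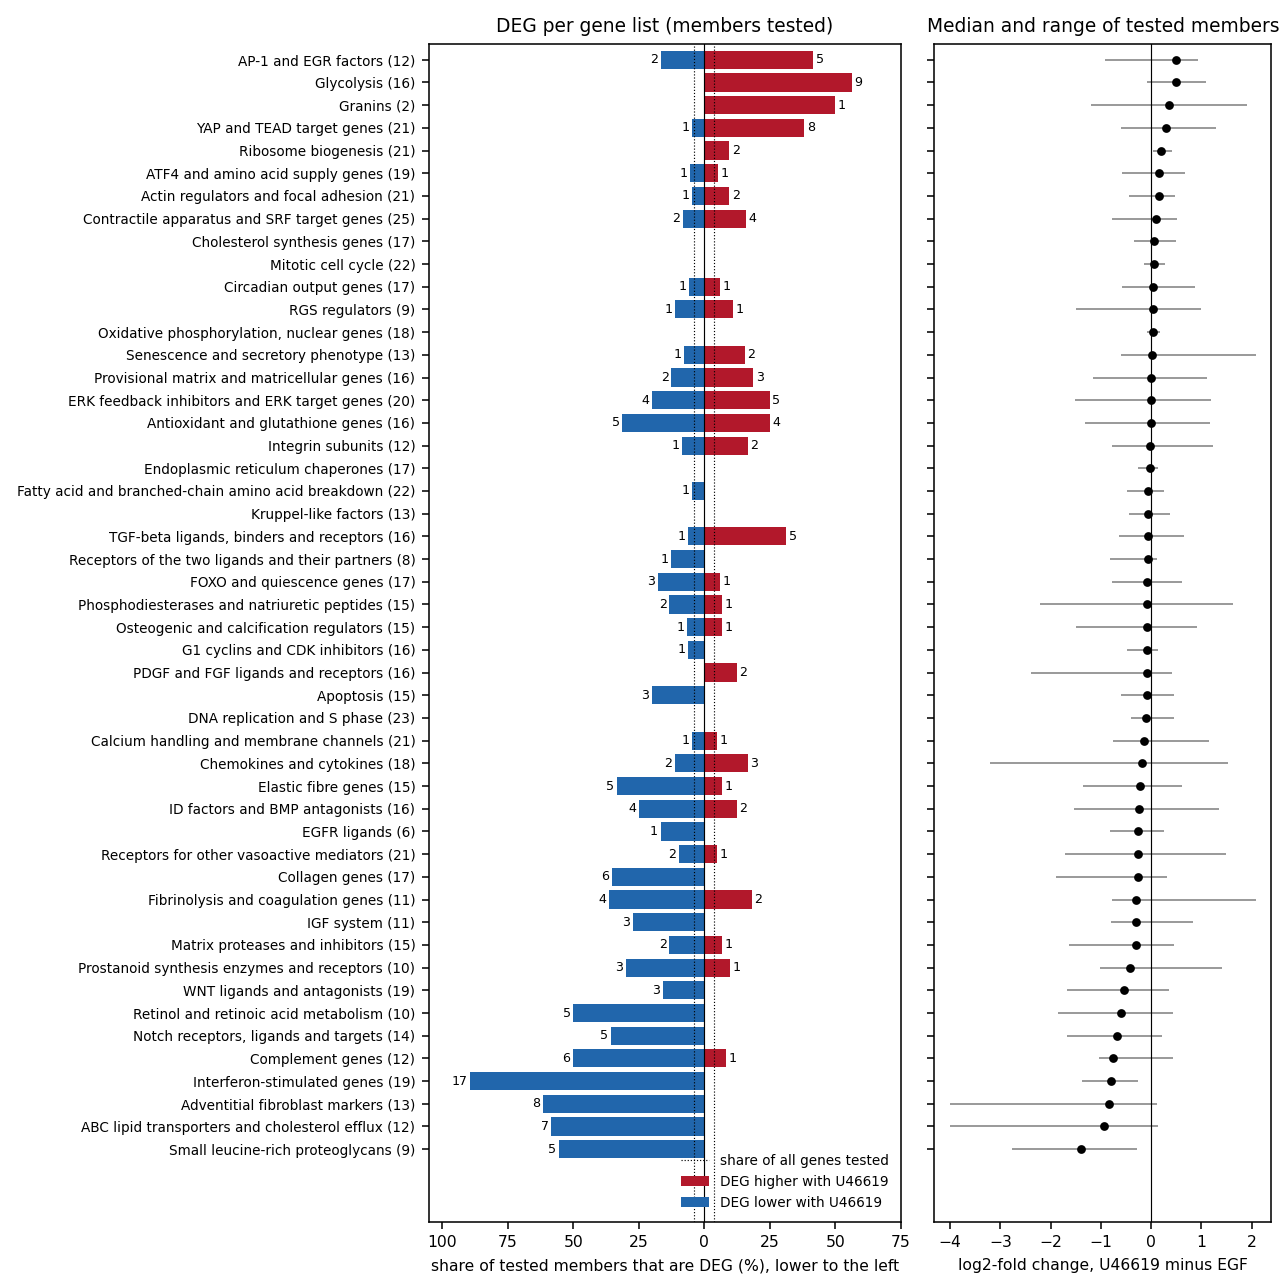
Left, share of the tested members of each gene list that were DEG, higher with U46619 to the right and lower to the left, with the number of DEG at each bar and dotted lines at the shares of all genes tested (3.8% and 4.02%); right, median (point) and range (line) of the log2-fold change of the tested members. Small leucine-rich proteoglycans (median −1.40) and ABC lipid transporters (−0.93) stand at the low end, interferon-stimulated genes hold the most lower DEG (17 of 19), and AP-1 factors and glycolysis stand at the high end (0.50 and 0.49).

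Several markers of adventitial fibroblasts, cells of the outer vessel wall, were lower with U46619 than with EGF. Of 13 tested, 8 were DEG and all 8 were lower, with a median of −0.85. This list was chosen with earlier results of these data known and is longer than the marker set first planned. Of the added members, Abca8a, Adh1 and Serpinf1 are among the lower DEG, and Smoc2 and Medag were not DEG. The whole list (14 measured of 16) summed to 3979 to 5474 FPM with U46619 and to 5377 to 7440 FPM with EGF, and was lower in 5 of 5 sets, in set 5 by the least (5474 against 5981 FPM). In bulk cultures, fewer cells of a type and less RNA per cell cannot be told apart. Scara5, a ferritin receptor (chr14:65666403-65764826), was measured at 1.73, 3.39, 3.34, 1.40 and 29.9 FPM with U46619 and at 18.4, 31.3, 21.3, 8.55 and 45.8 FPM with EGF. In sets 1 to 4 it was at most 3.39 FPM with U46619, while set 5 kept much more (−2.40 ± 0.35, edgeR FDR = 0.0038). Lrrc17 (−3.24 ± 0.22), Pi16 (−1.46 ± 0.16), Cd34 (−0.85 ± 0.17) and gelsolin (Gsn, −0.58 ± 0.12) were lower too. Without set 2 the list held 5 DEG. Smooth muscle markers (6 measured of 8) held 0 DEG (3 at an unadjusted p under 0.05 in edgeR, DESeq2 alone called 1, lower with U46619). Of these markers, 3 had a positive and 3 a negative log2-fold change. Their sum was higher with U46619 in 4 of 5 sets, but Acta2, which was not DEG, made up most of it. The part of cell composition in the results was not tested.

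Several genes of lipid transport were lower too, and this list shares Abca8a with the adventitial list. Of 12 tested, 7 were lower and 0 higher (8 at an unadjusted p under 0.05 in edgeR), with a median of −0.93. Abca8a, an ABC transporter of the A subfamily (chr11:110025634-110095978), had the largest decrease of all DEG. It was measured at 0.192, 0.458, 1.10, 0.395 and 4.37 FPM with U46619 and at 10.8, 18.2, 35.6, 2.29 and 25.7 FPM with EGF. It was lower in every set, and the groups overlapped through set 4 with EGF and set 5 with U46619 (−4.01 ± 0.43, or 16.11-fold, edgeR FDR = 0.00088). Its neighbours Abca8b (−1.35 ± 0.26) and Abca9 (−2.18 ± 0.44) were lower as well. Apoe, apolipoprotein E (chr7:19696109-19699188), was measured at 746, 58.4, 401, 244 and 247 FPM with U46619 and at 1434, 129.6, 1050.1, 557 and 520.1 FPM with EGF. It was lower with U46619 in each set, and set 2 held far less than the others under both ligands (−1.15 ± 0.10, edgeR FDR = 0.0004). Apod (−1.83 ± 0.22), the liver X receptor gene Nr1h3 (−0.71) and Npc2 (−0.32), which moves cholesterol out of lysosomes, completed the 7. The list held 4 DEG without set 3 and 6 without any 1 of the other sets, and Npc2 was DEG in 0 of these fits.

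Of 10 genes of retinol and retinoic acid metabolism tested, 5 were lower and 0 higher (7 at an unadjusted p under 0.05 in edgeR), with a median of −0.60. They included the alcohol dehydrogenase Adh1 (−1.86 ± 0.20), the retinal dehydrogenase Aldh1a3 (−1.32 ± 0.14) and Rarres2, chemerin (−1.69 ± 0.17). Adh1 is counted in the adventitial list as well. Without set 3 the list held 3 DEG. Of 12 complement genes tested, 6 were lower and 1 higher (median −0.76). The lower members included the C1 protease gene C1ra (−1.04 ± 0.22), whose reads may in part be shared with near-identical copies, C4b (−0.65) and the collectin receptor Colec12 (−0.85 ± 0.15). The complement list held 2 lower members without set 1 and 1 without set 2 or 3, and 0 higher ones without set 1, 3 or 4.

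Interferon-stimulated genes were lower as a group. Of 19 tested, 17 were lower and 0 higher (18 at an unadjusted p under 0.05 in edgeR), all 19 had a negative log2-fold change and the median was −0.80. The lower members numbered 12 to 16 with any 1 set left out. Ifit3, which blocks viral RNA (chr19:34583531-34588731), was measured at 38.3, 38.2, 153.1, 79.5 and 193.1 FPM with U46619 and at 114, 91.5, 399.7, 307 and 319 FPM with EGF. Sets 3 to 5 held more than sets 1 and 2 under both ligands, so the groups overlapped, and U46619 was lower in every set (−1.38 ± 0.15, edgeR FDR = 0.00092; its reads may be shared with its close copy Ifit3b). Isg15, a ubiquitin-like modifier (chr4:156199424-156200818), was measured at 30.6, 32.98, 82.2, 54.8 and 122 FPM with U46619 and at 58.6, 49.1, 127, 137 and 173.9 FPM with EGF. It was lower in each set, by the most in set 4, and the groups overlapped (−0.80 ± 0.12, edgeR FDR = 0.004). Oasl2 (−1.16 ± 0.15), Irf7 (−0.92 ± 0.14), the guanylate-binding proteins Gbp2 (−0.78) and Gbp3 (−1.14 ± 0.17) and the immunoproteasome subunit Psmb8 (−0.86 ± 0.10) were lower, and so was the chemokine Cxcl10 (−1.24 ± 0.16). The median of Ifit3 was 218 FPM in control, 307 FPM with EGF, 79.5 FPM with U46619 and 80.8 FPM with EGF+U46619. 

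The interferon-stimulated response element was searched as 2 copies of TTTC with any 2 bases between them, and as the same with GAAA for the other strand, in the same promoters and was present in 3.44% of them. Counted by gene, 1079 of 27025 hold it. Of the 17 lower members, 14 have a promoter in the table and 9 of these genes hold the element, as does 1 of the 2 tested members that were not DEG. The members were chosen as interferon-stimulated genes, so a share above that of all promoters is no result of these data. The promoters of Ifit3 (chr19:34583279-34583528, plus strand), Isg15 (chr4:156200819-156201068, minus strand) and Gbp3 (chr3:142559794-142560043, plus strand; RefSeq, GRCm38.p6) are shown because these lower genes carry more than 1 match. Each line gives the 250 bases before the gene start, 5′ to 3′ on the strand of the gene, with the element in capitals.
Ifit3: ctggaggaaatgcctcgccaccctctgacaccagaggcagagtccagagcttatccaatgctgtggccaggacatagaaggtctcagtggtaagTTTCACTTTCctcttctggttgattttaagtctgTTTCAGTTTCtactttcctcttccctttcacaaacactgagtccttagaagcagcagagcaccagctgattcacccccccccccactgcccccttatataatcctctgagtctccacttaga
Isg15: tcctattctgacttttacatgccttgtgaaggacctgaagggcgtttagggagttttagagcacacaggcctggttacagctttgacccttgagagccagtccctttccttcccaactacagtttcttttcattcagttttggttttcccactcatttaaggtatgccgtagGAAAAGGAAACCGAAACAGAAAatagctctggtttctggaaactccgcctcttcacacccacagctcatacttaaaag
Gbp3: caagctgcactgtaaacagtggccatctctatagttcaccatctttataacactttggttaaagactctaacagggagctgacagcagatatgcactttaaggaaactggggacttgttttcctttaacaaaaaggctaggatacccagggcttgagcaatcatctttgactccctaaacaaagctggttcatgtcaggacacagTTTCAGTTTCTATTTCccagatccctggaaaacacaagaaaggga
The nearer of the 2 matches of Ifit3 begins 122 bases before its start. The 3 overlapping matches of Isg15 begin 78, 72 and 66 bases before the start and the 2 overlapping matches of Gbp3 begin 45 and 39 bases before it. The letters say nothing of which factor was bound in these cultures.

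Among 18 chemokines and cytokines tested, 3 were higher and 2 lower. The higher count was 1 without set 1, 3 or 4, and the lower count was 1 without set 1, 2 or 3 and 0 without set 5. Il6, a proinflammatory cytokine (chr5:30013114-30019981), was measured at 4.79, 21.1, 18.8, 7.01 and 44.6 FPM with U46619 and at 1.91, 5.34, 7.04, 2.87 and 15.1 FPM with EGF. All sets were higher with U46619, with set 5 highest under both ligands (1.53 ± 0.13, edgeR FDR = 0.0004). The macrophage growth factor Csf1 (0.47) was higher as well, but was DEG in 1 of the 5 fits with 1 set left out. The chemokine Cxcl13, which attracts B cells and belongs to no list, was lower (−2.42 ± 0.21). Of 10 prostanoid enzymes and receptors tested, 1 was higher and 3 lower (median −0.43). The lower count was 1 without set 1, 3 or 5, and the median was 0.07 without set 1 and 0.11 with no filter for low counts. Ptgs2, the inducible cyclooxygenase that makes the precursor of thromboxane (chr1:150100031-150108227), was measured at 25.3, 30.96, 27.3, 40.1 and 117 FPM with U46619 and at 9.42, 8.69, 10.1, 11.4 and 74.5 FPM with EGF. Set 5 was far above the other sets under both ligands, and each set was higher with U46619 (1.42 ± 0.16, edgeR FDR = 0.0011). The relaxing prostanoid receptors Ptgir (prostacyclin, −1.02 ± 0.18) and Ptger4 (prostaglandin E2, −0.85 ± 0.21) were lower.

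Of 9 RGS genes tested, whose products switch off G proteins, 1 was higher and 1 lower. Rgs16 was measured at 64.1, 72.8, 42.7, 82.6 and 37.2 FPM with U46619 and at 27.8, 50.02, 15.9, 43.8 and 19.5 FPM with EGF. Each set was higher with U46619, with overlapping groups (1.00 ± 0.12, edgeR FDR = 0.0013). Rgs5, a marker of mural cells, was measured at 26.98, 9.62, 13.6, 7.74 and 10.7 FPM with U46619 and at 79.6, 20.96, 57.1, 26.7 and 19.8 FPM with EGF. It was lower in 5 of 5 sets (−1.50 ± 0.16, edgeR FDR = 0.00088). Of 21 receptors for other vasoactive mediators tested, the thrombin receptor F2r was higher (0.43 ± 0.11), and 2 were lower, the endothelin receptor Ednra (−0.77 ± 0.17) and the lysophosphatidic acid receptor Lpar1 (−0.41). Without set 1, 2 or 3 the list held 0 DEG, and without set 5 it held 0 higher and 4 lower members.

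Several glycolysis genes were higher with U46619 than with EGF. Of 16 tested, 9 were higher and 0 lower (12 at an unadjusted p under 0.05 in edgeR), and the median was 0.49. Hk2, the hexokinase that commits glucose to the cell (chr6:82725025-82774454), was measured at 83.4, 74.6, 66.5, 73.2 and 55.3 FPM with U46619 and at 33.7, 38.4, 27.8, 40.4 and 33.4 FPM with EGF. Every U46619 culture was above every EGF culture (1.02 ± 0.10, edgeR FDR = 0.00075). The glucose transporter gene Slc2a1 also had groups that did not overlap (0.71 ± 0.12). Pfkl (0.53), Pgam1 (0.60), Gapdh (0.66 ± 0.13) and the pyruvate dehydrogenase kinase Pdk1 (0.52) were higher as well, where Gapdh and Pgam1 have many near-identical pseudogenes. The count was 3 without set 1 or 3, 4 without set 4 and 5 without set 2. Vegfa, like Slc2a1 a target of hypoxia signaling, was higher too (0.42 ± 0.09). Of 18 nuclear genes of oxidative phosphorylation tested, 0 were DEG (0 at an unadjusted p under 0.05 in edgeR and 0 by DESeq2 alone).

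The antioxidant and glutathione genes split. Of 16 tested, 4 were higher and 5 lower, with a median of −0.01. The higher members were Hmox1, Txnrd1 (0.66 ± 0.11), Gclm (0.56 ± 0.09) and Srxn1 (0.58 ± 0.10). Hmox1, which degrades heme (chr8:75093621-75100589), was measured at 357, 670.1, 705, 1078 and 356 FPM with U46619 and at 138, 313, 269.9, 438 and 222 FPM with EGF. The increase was present in every set and smallest in set 5 (1.17 ± 0.12, edgeR FDR = 0.00075). Lower were the glutathione transferases Gstt1 (−1.31 ± 0.17), Gstm1 (−1.05 ± 0.14) and Gstm2 (−0.41), of which the Gstm genes may share reads, and the secreted peroxidase Gpx3 (−1.08 ± 0.16). The lower members numbered 3 without set 1, 3 or 4.

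**Figure D4:**
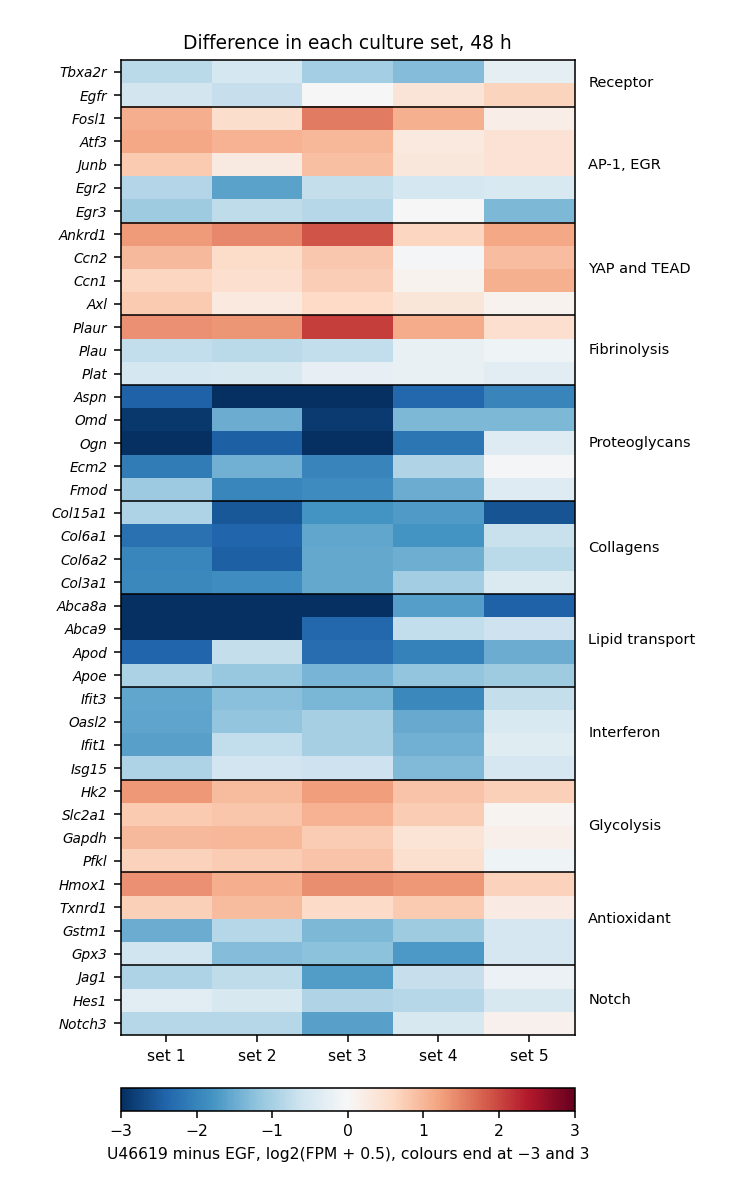
Difference between U46619 and EGF in each culture set (columns) for genes of the report (one per line, grouped by list), as log2 of FPM plus 0.5, with red for higher and blue for lower with U46619 and colours that end at −3 and 3. The proteoglycans, collagens, lipid transport and interferon genes are blue in all 5 columns, set 5 is the palest for Ogn and Col3a1, and Egfr and Notch3 change sign between sets.

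Several lists held no DEG. Among 22 mitotic genes tested 0 were DEG (1 at an unadjusted p under 0.05 in edgeR and 0 by DESeq2 alone), with log2-fold changes between −0.13 and 0.28. Among 23 genes of DNA replication 0 were DEG (3 at an unadjusted p under 0.05 in edgeR, DESeq2 alone called 1), and their changes lay between −0.40 and 0.44. Cholesterol synthesis (17 tested), endoplasmic reticulum chaperones (17) and Krüppel-like factors (13) held 0 DEG as well, with 1, 1 and 3 members at an unadjusted p under 0.05 in edgeR.

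Some Notch genes and endothelial markers were lower with U46619. Of 14 Notch genes tested, 5 were lower, 0 higher and 9 not DEG (10 at an unadjusted p under 0.05 in edgeR), with a median of −0.69. The ligand Jag1 (−0.86 ± 0.17), the receptor Notch3 (−0.75 ± 0.20) of mural cells, the target genes Hes1 (−0.62 ± 0.10) and Hey1 (−1.34 ± 0.26) and the glycosyltransferase Lfng (−0.63) were lower. Notch3 was measured at 133, 41.7, 34.5, 35.7 and 48.2 FPM with U46619 and at 241, 75.8, 108, 50.4 and 44.00 FPM with EGF. It was lower in sets 1 to 4 and slightly higher in set 5, and 2 members were DEG without set 1 or 3. Of 9 endothelial markers tested, Pecam1 (−0.45 ± 0.09), Tie1 (−0.45 ± 0.09) and Egfl7 (−0.58 ± 0.11) were lower as well (1 of the 3 without set 3). The other 6 were not DEG, and 1 of the 9 had a positive log2-fold change (0.40). The sum over the endothelial list was lower in 4 of 5 sets (1015 against 1282, 140.3 against 166.1, 122.0 against 169.5 and 241.3 against 343.0 FPM) and higher in set 5 (18.04 against 14.6 FPM). The part of endothelial cells in the Notch values was not tested. The Schwann cell marker S100b was lower in 5 of 5 sets (−1.32 ± 0.13), and of 4 macrophage markers tested Csf1r was higher (0.72 ± 0.15) and Lyz2 lower (−0.64 ± 0.14), with the sum of the list lower in 3 of 5 sets. Neither marker was DEG without set 1 or 3, and Lyz2 was not without set 4.

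The largest increases among DEG with 5 of 5 sets in 1 direction included several genes of low level. Klhl30, a muscle-associated kelch protein (chr1:91351016-91362416), was measured at 12.5, 10.7, 10.6, 10.2 and 3.04 FPM with U46619 and at 0.972, 2.11, 2.71, 3.60 and 0.835 FPM with EGF. Set 5 was lowest under both ligands and its U46619 culture lay below the EGF culture of set 4 (2.24 ± 0.27, edgeR FDR = 0.0014). C4bp, an inhibitor of complement (2.16 ± 0.35), and Vgf, a secreted granin-like precursor (1.92 ± 0.32), followed, with means of 5.72 against 1.56 FPM and 12.5 against 3.67 FPM. Further increases were found for Crct1 (1.76), the phosphatase Ppm1e (1.73), the relaxin family receptor Rxfp3 (1.65), the cytokine Tnfsf18 (1.46), the cardiac kinase Tnni3k (1.42) and the actin-binding Aif1l (1.37), all with means under 13 FPM. On the lower side, Dlk1, a membrane protein that keeps progenitor cells undifferentiated (chr12:109452823-109463336), was measured at 3.21, 2.52, 6.67, 31.8 and 7.07 FPM with U46619 and at 20.3, 17.9, 35.03, 88.05 and 37.3 FPM with EGF. Set 4 held the most under both ligands, and each set was lower with U46619 (−2.29 ± 0.18, edgeR FDR = 0.0004). The sodium channel gene Scn7a (−2.18 ± 0.26) had groups that did not overlap, and Sult1a1, a sulfotransferase (−2.12 ± 0.22), and Fxyd1, a regulator of the sodium pump (−2.01 ± 0.21), were lower in 5 of 5 sets. The most abundant lower DEG were the ferritin chain Fth1 (2866 against 4249.6 FPM, −0.57 ± 0.12), gelsolin, Col3a1 and Serpinf1 (−0.41), and the most abundant higher ones included Thbs1, Ccn2 and Myh9.

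Some DEG lay next to each other, which was noticed after their values were seen. Of 12 runs of at least 3 adjacent tested protein-coding genes called in 1 direction, 9 were lower and 3 higher with U46619. How many such runs the share of DEG alone would give was not tested. Neighbours of 1 gene family, such as the Gbp genes, may share reads, so their calls need not be separate. The higher runs included Prdx6, Tnfsf18 and Suco on chromosome 1 (161240112 to 161876682) and Ypel5, Lbh and Lclat1 on chromosome 17 (72836453 to 73243368). Of the lower runs, 5 are given. Ecm2, Aspn, Omd and Ogn are neighbours on chromosome 13 (49504810 to 49624501), and Abca8b, Abca8a and Abca9 on chromosome 11 (109932190 to 110168196). Psmb9, Tap1, Psmb8 and Tap2, which process antigens, lie together on chromosome 17 (34181987 to 34216321). Gbp7, Gbp3 and Gbp2 are neighbours on chromosome 3 (142530342 to 142638008), as are 5 interferon-inducible Ifi200 genes on chromosome 1 (173747293 to 174031810).

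The study names genes for combined stimulation, which it chose on samples of this series, and the 10 of them that are not pseudogenes are given here. Of these 10, Gstm2 (−0.41 ± 0.10) and Tpst1 (−0.31 ± 0.09), a tyrosine sulfotransferase, were lower with U46619, each with groups that did not overlap. Neither was DEG without set 1, 2, 3 or 4 or with sets 1 and 4 summed. The other 8 were not DEG. Spp1, osteopontin, had a log2-fold change of 0.91 with an FDR of 0.037 in edgeR but did not pass in DESeq2.

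The 24 h incubation compared the same ligands in cultures of 6 other mice, sequenced in another batch. There, 1280 of 12916 genes were DEG (9.91%), 634 higher with U46619 (4.91%) and 646 lower (5%). This number depended on single mice, with 6 DEG without mouse 1, 2 without mouse 4, 2 without mouse 5, 503 without mouse 2 and 1346 and 912 without mouse 3 and 6. Of the 1085 DEG of the 48 h comparison that were tested after 24 h, 1047 (96.5%) had the same direction, against 74.8% of all genes tested at both times. Both comparisons called 476 genes in the same direction (246 higher, 230 lower), which is 43.9% of the 48 h DEG tested and 37.2% of the 24 h DEG, and 0 genes in opposite directions. Without set 1 the shared number was 241, and without set 3 it was 208. Ankrd1 (3.27), Abca8a (−4.40) and Aspn (−2.50) were DEG at both times. Isg15 had a log2-fold change of 0.00 after 24 h, higher in 3 and lower in 3 of 6 mice, and Ifit3 one of −1.46 that was not called. Acta2 was DEG after 24 h (2.55, higher in 6 of 6 mice). Whether the effects differ between the times was not tested, since time and sequencing batch cannot be told apart.

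**Figure D5:**
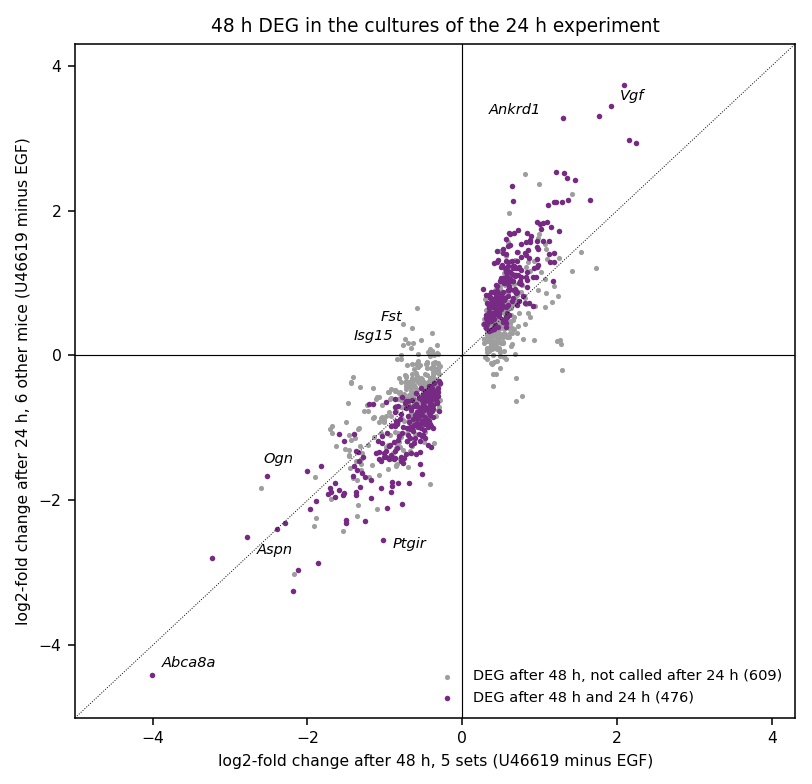
Log2-fold change (U46619 minus EGF) of the 1085 DEG of the 48 h comparison that were tested at both times, after 48 h in 5 culture sets (horizontal) and after 24 h in 6 other mice (vertical), with the 476 genes called at both times in purple and a dotted line of equal change. All but 38 points lie in the lower left or upper right quadrant, and Isg15 lies at 0 after 24 h.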

How the data were processed

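Poly(A) RNA of 5 aVSMC cultures with U46619 and 5 with EGF (48 h) was sequenced as paired ends. The authors aligned reads to mm10 with HISAT2 2.1.0 and counted them on exons with featureCounts. Multi-mapped reads were included, so near-identical genes share reads. Whether strand was used is not given in the sources used here, so overlapping antisense genes cannot be told apart. The deposited values are whole-number counts per gene and library, without normalization, and the total per library (19936925 to 32797224) sets the counting error.

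Counts were filtered with edgeR's filterByExpr and tested with edgeR 4.0.16 (quasi-likelihood, TMM) and DESeq2 1.42.0 (Wald) in R 4.3.3, with culture set and treatment in the design. DEG needed an adjusted p (FDR) below 0.05 from each tool and 5 FPM or more in 1 group. FDR values are edgeR's, Benjamini-Hochberg adjusted over all tested genes. Errors of log2-fold changes are standard errors of the edgeR fit to the 5 sets. They were taken as the log2-fold change divided by the square root of the quasi-likelihood F statistic, whose variance draws on other genes too. The set was the block because cultures of a set deviated together from their group means (r = 0.565 to 0.846 across genes, at most 0.189 with another set). For sets 1 and 4, which share a mouse number, the highest r with another set was 0.113 and 0.0726. As the deviations are taken from a mean over 5 sets, these values cannot tell whether the 2 sets came from 1 mouse. The 24 h comparison used the mouse (n = 6) as block. limma 3.58.1 served as an alternative. The fit with edgeR and DESeq2 was also run on simulated counts, whose outcome is not reported here. In those counts the effect of a gene was the same in every set, unlike in the cultures.

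Genes were named by rule: the 12 largest DEG in each direction with 5 of 5 sets alike, Egfr and Tbxa2r, the 4 list members with the lowest p, the genes the study names, and the 4 most abundant DEG in each direction. Other list members, and the neighbouring genes, were named after their values were seen. Some genes that the rule selects are not reported here. Members and gene lists were chosen with earlier results of these data known. Coordinates are those of GENCODE on GRCm38.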

Additional observations from a re-analysis of the deposited data

Results flagged for a closer look

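In 5 of 145 named genes, 1 culture set stood apart from the other 4 in the difference between U46619 and EGF (log2 of FPM plus 0.5), by Dixon's test for 5 values, which chance passes in about 1 of 20 groups. Dlk1 differed by −1.45 in set 4 (others −2.60 to −2.31) and Etv5 by −0.15 in the same set (others −0.46 to −0.38). Spry1 differed by −0.03 in set 5 (others −1.85 to −1.38) and Lats2 by 0.82 (others 0.24 to 0.38). Fxyd1 differed by −2.79 in set 1 (others −1.69 to −1.48). Over all DEG lower with U46619, the median difference was −0.37 in set 5, against −0.70 to −0.62 in the others.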

How the results depend on the processing

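The 1089 DEG, 529 higher and 560 lower, were within 1.5 times of these counts, and no shared call changed direction, with edgeR, DESeq2, limma or edgeR's likelihood ratio test, DESeq2 size factors, other filters, no FPM minimum, and sets 1 and 4 summed; with all 4 groups of the batch in the fit, 821 were higher. Without the replicate block, the counts were 0 DEG (0 higher, 0 lower), 0 shared with 24 h and 0 list members. With the mouse number as block they were 95 (45 higher, 50 lower), 64 shared with 24 h and 21 list members (main 476 and 195). In that fit, sets 1 and 4 share 1 block. With 1 set left out in turn, DEG numbered 424 to 1286, higher 193 to 580, lower 231 to 706, shared with 24 h 208 to 547 and list members 94 to 225, the lowest without set 3. Of the DEG, 361 were called without each set in turn and 62 in none of these fits, and 75 of the named DEG were called each time. After 24 h, 1280 DEG became 2294 with DESeq2 alone, 1 without the replicate block and 2 to 1346 with 1 mouse left out. Egfr (main −0.03) was 0.088 without the replicate block, 0.017 with sets 1 and 4 summed and −0.21 to 0.13 with 1 set left out (above 0 without replicate 1 or 2), and was called in none of them. The cause of these shifts was not tested. Without the FPM minimum 1271 genes were DEG. What depth limits was not tested.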

Other observations

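Secreted WNT and IGF regulators were among the further lower genes. Of 19 WNT ligands and antagonists tested, 3 were lower with U46619 and 0 higher (11 at an unadjusted p under 0.05 in edgeR), with a median of −0.55: the antagonists Sfrp4 (−1.68 ± 0.29) and Dkk3 (−0.72 ± 0.09) and the receptor Fzd1 (−0.63 ± 0.14). Of 11 genes of the IGF system tested, the binding proteins Igfbp3 (−0.61 ± 0.14), Igfbp4 (−0.67 ± 0.14) and Igfbp6 (−0.80 ± 0.11) were lower and 0 were higher (6 at an unadjusted p under 0.05 in edgeR), and 1 was lower without set 1. Sox9, a factor of cartilage and of matrix-forming smooth muscle cells, was lower in 5 of 5 sets (−1.01 ± 0.14, edgeR FDR = 0.0028), and the phosphate transporter Slc20a2 was higher, with groups that did not overlap (0.53 ± 0.09).

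Of 17 FOXO and quiescence genes tested, 1 was higher and 3 were lower, with 0 higher without set 1, 2 or 3, and 1 lower without set 3 and 5 without set 5. Sesn1, a stress-induced inhibitor of mTORC1, was lower in every U46619 culture than in any EGF culture (−0.78 ± 0.12, edgeR FDR = 0.004), and Txnip (−0.46) and Pink1 (−0.50) were lower too. Gadd45b was higher (0.62 ± 0.14). Among second messenger genes, the calcium-activated phosphodiesterase Pde1b was higher (0.56 ± 0.12), while Pde3b (−0.57) and the cGMP-specific Pde5a (−0.58) were lower, of 15 tested. That list held 0 DEG without set 1, 0 higher members without set 4, and 0 lower members without set 3, 1 without set 2 and 4 without set 5. Of 21 genes of calcium handling and membrane channels tested, 1 was higher and 1 lower, where 7.82% of all genes tested were DEG. The potassium channel gene Kcnj15 was higher (1.14 ± 0.24) and the calcium pump gene Atp2b4 lower (−0.75 ± 0.16), neither of them DEG without set 3. Of 17 circadian output genes tested, 1 was higher and 1 lower. The higher member Nfil3, a circadian repressor, was higher in 5 of 5 sets (0.88 ± 0.14, edgeR FDR = 0.0046).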
